A study of Mus musculus with 6 samples.

Results

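A set of 10 genes that mark the reticular stroma of the bone marrow (Cxcl12, Lepr, Adipoq, Ebf3, Foxc1, Kitl, Cxcl14, Igfbp5, Vcam1 and Pdgfrb) was followed through RNA-seq libraries of sorted blood stem cells. The genes were taken by symbol from the deposited gene table, and 10 of 10 were found among its 49997 genes. The libraries come from long-term haematopoietic stem cells (HSCs), the cells that sustain blood formation, sorted from the marrow of 4-month-old C57BL/6J mice by their level of Asrij, the protein encoded by Ociad1. There are 3 libraries of cells with low Asrij (Asrij low) and 3 of cells with high Asrij (Asrij high). The labels give C57BL/6J as the genotype of each library and name no treatment. The name of the deposited table carries the letters ArjKI, which the labels do not explain, so whether all 6 libraries share an altered Asrij allele is not known here. The labels do not state whether Asrij was read by an antibody or a reporter, how pure the gates were, or how many mice each library drew on.

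CXCL12-abundant reticular cells are perivascular stromal cells of the marrow with long processes that contact sinusoids and blood stem cells. They are the main marrow source of the chemokine CXCL12 and of KIT ligand, which hold stem cells in place and keep them alive, and most of them carry the leptin receptor and express adiponectin. Ebf3 and Foxc1 encode transcription factors that maintain this cell state in the adult. None of these cells is a blood cell, and their defining genes are used as markers of a cell type other than the one sorted. Which cells the transcripts in these libraries came from was not tested. Vcam1 and Pdgfrb are used less exclusively, since Vcam1 is also made by marrow macrophages and endothelium.

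In these libraries 9 of the 10 genes were lower in Asrij high and 1, Vcam1, did not pass the test. Cxcl12, Kitl, Cxcl14, Adipoq, Igfbp5, Lepr, Ebf3 and Foxc1 were 11.9-fold to 31.2-fold lower, and Pdgfrb was 5.33-fold lower. A gene is called here when its adjusted p in edgeR's quasi-likelihood test over 21445 tested genes is under 0.05, and of all tested genes 39.4% were called, 17.7% lower and 21.7% higher in Asrij high. The median log2 fold change, Asrij high over Asrij low, was -4.09 over the 10 genes and -0.02 over all tested genes. Without Asrij high replicate 1 the count was 5 of 10, where 10.2% of all tested genes were called lower: Cxcl12, Lepr, Igfbp5 and Pdgfrb lost their calls with fitted values from -4.18 to -2.02. Without Asrij low replicate 3 it was 8 of 10, where 15.6% were called lower. The 10 genes were proposed with earlier results of these data known, so this count describes them and is no independent test. In bulk libraries, fewer cells of a type and less RNA per cell cannot be told apart.

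Library totals ran from 24707012 to 46240743 counts in Asrij low and from 62732782 to 72855125 in Asrij high, so the Asrij high libraries were deeper. Ociad1 was at 51.6 ± 5.72 CPM (counts scaled to a common library size, with TMM factors; mean ± SD, n = 3) in Asrij low against 80.3 ± 5.76 CPM in Asrij high, with no overlap (log2 0.64 ± 0.16, adjusted p = 0.0115). With scaling by library totals or upper quartile its difference was 0.36 in each and not called (adjusted p = 0.1325 and 0.0834), and it was not called without Asrij high replicate 1 (0.0831). Of 17 genes of HSC identity none was without counts, and 15 were lower and 0 higher in Asrij high. Over all tested genes 17.7% were called lower and 21.7% higher. The summed level of the 17 genes ran from 2485 to 3152 CPM in Asrij low against 674 to 1383 CPM in Asrij high. Asrij low replicate 3 stood apart by its content of globin and vessel genes, as given below beside the results it touches, and each gene is therefore also given without it.

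The sequences before the start sites of 3 of these genes are shown first, because they were lower together while their promoters differ in kind. RefSeq start sites on GRCm38.p6, the assembly behind mm10, were found for 8 of the 10 genes, in 9 windows of 250 bases before a start. Capitals mark CG dinucleotides, the sites of DNA methylation. The windows lie at chr6:117168285-117168534 (plus strand) for Cxcl12, at chr16:23146286-23146535 (plus strand) for Adipoq and at chr7:137314446-137314695 (minus strand) for Ebf3, and no GENCODE exon lies within them. The start used for Ebf3 is one inside the gene's full RefSeq span.
Cxcl12: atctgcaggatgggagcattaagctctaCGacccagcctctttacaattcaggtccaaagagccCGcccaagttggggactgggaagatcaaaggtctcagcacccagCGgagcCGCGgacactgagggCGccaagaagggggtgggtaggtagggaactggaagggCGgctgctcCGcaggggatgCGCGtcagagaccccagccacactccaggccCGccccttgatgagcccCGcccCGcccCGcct
Adipoq: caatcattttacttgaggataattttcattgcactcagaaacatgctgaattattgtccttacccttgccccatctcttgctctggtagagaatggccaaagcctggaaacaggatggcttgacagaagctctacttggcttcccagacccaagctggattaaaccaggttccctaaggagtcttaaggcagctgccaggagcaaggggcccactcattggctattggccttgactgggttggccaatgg
Ebf3: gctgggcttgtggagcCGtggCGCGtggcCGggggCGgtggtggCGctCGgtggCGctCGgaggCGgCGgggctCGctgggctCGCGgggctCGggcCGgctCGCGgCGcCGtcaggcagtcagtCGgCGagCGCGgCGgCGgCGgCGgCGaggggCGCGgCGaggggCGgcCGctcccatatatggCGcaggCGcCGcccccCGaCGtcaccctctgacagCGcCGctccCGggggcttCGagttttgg

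The Ebf3 window held 43 CG dinucleotides and 80.0% G and C, and 99.3% of all 32851 promoter windows held fewer CG dinucleotides. The Cxcl12 window held 14, above the median of 6 over all windows, and the Adipoq window held 0. The windows of Foxc1 (29), Kitl (23), Cxcl14 (16), Igfbp5 (10) and Lepr (10 in each of 2 windows) lay between those of Adipoq and Ebf3. The palindrome bound by EBF factors, TCCC and GGGA with any 2 bases between them, was present in 0 of the 9 windows and in 0.779% of all windows. The forkhead motif GTAAACA, searched on both strands, was in 0 of the 9 and in 3.17% of all. The TATA motif TATAAA, also searched on both strands, was in 1 of the 9, that of Kitl, where it began 25 bases before the start, and in 12.4% of all. These matches describe letters in short windows only.

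The secreted signals are described first. Cxcl12 (chromosome 6, 117168535 to 117181368), the chemokine that retains stem cells in the marrow through the receptor CXCR4, led the 10 genes in mean level per kilobase in Asrij low, though not without replicate 3. It had 145, 74.3 and 493 CPM in Asrij low replicates 1 to 3 and 8.83, 9.86 and 17.5 CPM in Asrij high replicates 1 to 3. All Asrij low libraries lay above all Asrij high libraries, as for 24.8% of all tested genes, and replicate 3 was the highest library of each group. The fitted log2 fold change was -4.30 ± 0.73 (SE, adjusted p = 0.00331). It was -3.21 without Asrij low replicate 3. Leaving out Asrij high replicate 1 ended the call (-4.18, adjusted p = 0.0758), and over 14 alternatives the adjusted p ran from 4.52e-06 to 0.0758.

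Kitl (chromosome 10, 100015615 to 100100416) encodes KIT ligand, or stem cell factor, the growth factor for the receptor KIT on stem cells. It was a low gene, with 96, 62 and 268 counts in Asrij low and 9, 10 and 34 counts in Asrij high. On the CPM scale these were 1.78, 2.15 and 10.3 against 0.165, 0.157 and 0.516. The groups did not overlap and replicate 3 was again the highest of each group. Its log2 fold change was -4.06 ± 0.88 (adjusted p = 0.00591), and -2.81 without Asrij low replicate 3. When Asrij high also lacked replicate 2, leaving 2 libraries in each group, it was -2.52 and not called (adjusted p = 0.0534, the highest of a range that began at 2.15e-06).

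Cxcl14 (chromosome 13, 56288643 to 56296811), a chemokine of stromal and epithelial cells, had 14.1, 7.52 and 28.5 CPM in Asrij low against 0.404, 0.628 and 0.561 CPM in Asrij high. Its lowest Asrij low library was 12.0-fold above its highest Asrij high library, the widest gap among the 10 genes. The fall of 4.96 ± 0.54 on the log2 scale (adjusted p = 3.58e-04) had the smallest SE among the 9 called genes, with a 95% interval from -6.18 to -3.74. It was called under each of the 14 alternatives, at -4.38 without Asrij low replicate 3.

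Adipoq (chromosome 16, 23146536 to 23157968) encodes adiponectin, a hormone of fat cells that marrow reticular cells also transcribe. It had 3.81, 4.95 and 12.4 CPM in Asrij low against 0.312, 0.346 and 0.789 CPM in Asrij high, without overlap. The log2 fold change was -3.85 ± 0.63 (adjusted p = 0.00183), called under each alternative and at -3.18 without Asrij low replicate 3. Other genes of the mature fat cell were mixed. The fatty acid binding protein gene Fabp4 (311, 121 and 621 counts in Asrij low against 42, 50 and 193 in Asrij high), the regulator gene Pparg (169, 61 and 260 counts against 25, 8 and 31) and Lpl were called lower. Of these, Pparg entered the test through the Asrij low libraries alone. The lipid droplet gene Plin4 (234, 73 and 87 counts against 133, 262 and 224) was not called. Plin1, the perilipin of fat cell droplets, had 0, 4 and 33 counts against 0, 2 and 0, and Cidec, another lipid droplet gene, had no count in any library.

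Igfbp5 (chromosome 1, 72858065 to 72874865), which encodes a secreted protein that binds insulin-like growth factors, is among the higher of the 10 genes per kilobase in Asrij low. It had 54.2, 40.6 and 294 CPM there and 6.76, 4.13 and 11.5 CPM in Asrij high. Again the groups did not overlap and replicate 3 was the highest library of each. Its log2 fold change was -4.11 ± 0.84 (adjusted p = 0.00707) and -2.68 without Asrij low replicate 3. Dropping the count filter ended the call (adjusted p = 0.079), as did leaving out Asrij high replicate 1 (0.122) or 2 (0.0793). Its adjusted p lay between 7.85e-05 and 0.122 over the alternatives.

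**Figure D1:**
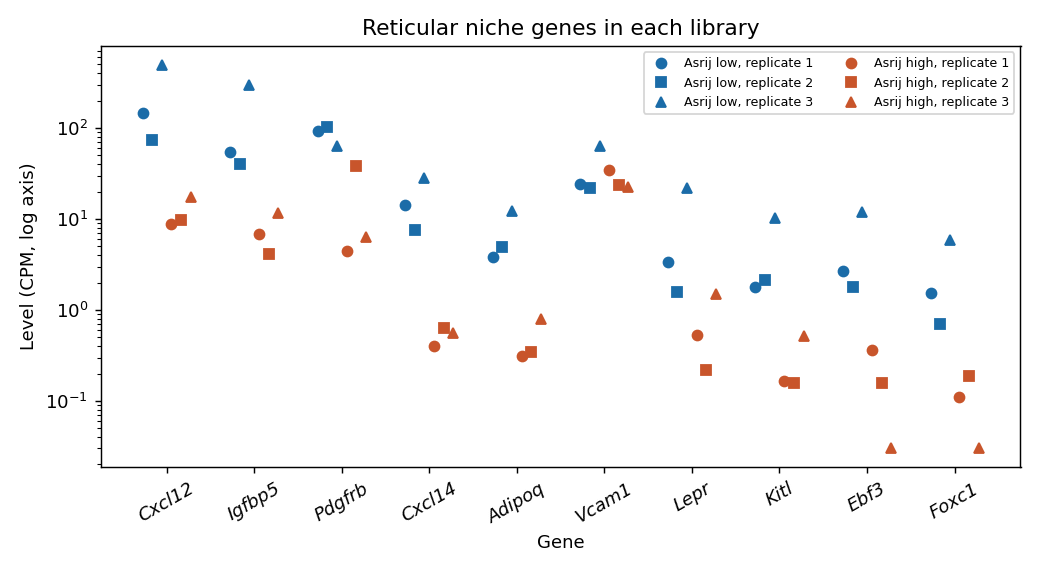
Level of each of the 10 genes in each library, in CPM on a log axis, with genes ordered by their mean level per kilobase in Asrij low. Blue marks are the 3 Asrij low libraries and orange marks the 3 Asrij high libraries. The groups separate for 9 genes and overlap for Vcam1, and Asrij low replicate 3 (blue triangles) is the highest library for 9 genes and the lowest Asrij low library for Pdgfrb.

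The transcription factor genes had the lowest mean levels per kilobase. Ebf3 (chromosome 7, 137193671 to 137322805) had 2.68, 1.80 and 12.0 CPM in Asrij low against 0.367, 0.157 and 0.0303 CPM in Asrij high, where the counts were 20, 10 and 2. Foxc1 (chromosome 13, 31806646 to 31810635), a gene of 1 exon, had 1.52, 0.693 and 5.95 CPM in Asrij low against 0.110, 0.188 and 0.0303 CPM in Asrij high, where the counts were 6, 12 and 2. A count of 2 in Asrij high replicate 3 has an exact 95% Poisson interval of 0.00367 to 0.110 CPM, for counting error only. In both genes all Asrij low libraries lay above all Asrij high libraries, but Asrij high replicate 3, the highest of its group for Cxcl12, Kitl, Adipoq, Igfbp5 and Lepr, was here the lowest.

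The fall of Ebf3 was 4.90 ± 1.02 on the log2 scale (adjusted p = 0.00507) and that of Foxc1 4.60 ± 1.03 (adjusted p = 0.00713). Without Asrij low replicate 3 they were at -3.64 and -3.36. Foxc1 was called under each alternative (adjusted p up to 0.0431). Ebf3 was called under all but 1 of them, in which Asrij low lacks replicate 3 and Asrij high lacks replicate 2 (adjusted p = 0.0544, the highest of a range that began at 1.43e-07). Ebf3, Foxc1 and Kitl reached the filter on low counts in all 3 Asrij low libraries but not in all 3 Asrij high libraries, so they entered the test through the group where they are high. The other 7 genes reached it in each group. A gene model on the opposite strand, Gm45278, overlaps 244 bases of Ebf3 exons, and whether the counting used strand is not given in the sources used here.

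The receptor and adhesion genes follow. Lepr (chromosome 4, 101717137 to 101815352), the leptin receptor that names the LEPR+ stromal cells of adult marrow, had 3.41, 1.56 and 22.2 CPM in Asrij low against 0.533, 0.220 and 1.50 CPM in Asrij high. Asrij low replicate 2 and Asrij high replicate 3 nearly met, the lowest of one group being 1.04-fold the highest of the other. The log2 fold change was -3.58 ± 1.09 (adjusted p = 0.0308), with a 95% interval from -6.07 to -1.08. Leaving out Asrij low replicate 3 brought it to -1.75, which was not called (adjusted p = 0.138). Nor was it called in limma-voom (adjusted p = 0.0597), without a count filter (0.188), or without Asrij high replicate 1 (0.204) or 2 (0.121). When Asrij low lacked replicate 3 and Asrij high lacked replicate 2, it was -1.32 (adjusted p = 0.218).

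Leprot, a neighbouring gene on chromosome 4 whose RefSeq synonyms include LEPR, was looked at after its values were seen, since the names can be confused. It had 42.7 ± 3.74 CPM in Asrij low against 171 ± 44.3 CPM in Asrij high and rose (95% interval of the log2 fold change 1.52 to 2.48, adjusted p = 3.28e-04). The values of Lepr above are those of the row of that exact symbol.

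Pdgfrb on chromosome 18 encodes a receptor for platelet-derived growth factor that marks pericytes and stromal progenitors. It had 93.8, 104 and 63.1 CPM in Asrij low against 4.50, 38.1 and 6.39 CPM in Asrij high. Here Asrij low replicate 3 was the lowest of its group, and Asrij high replicate 2 stood far above the other 2 Asrij high libraries. The log2 fold change was -2.41 ± 0.77 (adjusted p = 0.0401). It was called without Asrij low replicate 3 (-2.64, adjusted p = 0.0449) and was larger without Asrij high replicate 2 (-3.96, adjusted p = 9.49e-05). The call was lost without a count filter (adjusted p = 0.184), without Asrij low replicate 1 (0.0763) or 2 (0.0606), and without Asrij high replicate 1 (0.152) or 3 (0.141).

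Vcam1 (chromosome 3, 116110020 to 116129688) encodes the adhesion molecule that binds the integrin of Itga4 and Itgb1 on blood cells. It had 24.4, 21.7 and 63.2 CPM in Asrij low against 34.3, 23.5 and 22.6 CPM in Asrij high. Apart from Asrij low replicate 3, the libraries of both groups lay between 21.7 and 34.3 CPM. The log2 fold change of -0.44 ± 0.39 did not pass the test (adjusted p = 0.403, range over alternatives 0.168 to 0.649), and its 95% interval ran from -1.32 to 0.44. Without Asrij low replicate 3 its sign turned (0.19, adjusted p = 0.598). The interval does not reach the fitted value of any of the other 9 genes, but it overlaps the intervals of Pdgfrb (-4.20 to -0.62) and Lepr (-6.07 to -1.08). The difference between genes was not tested. Gm43109, a gene model on the opposite strand, overlaps 61 bases of Vcam1 exons.

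**Figure D2:**
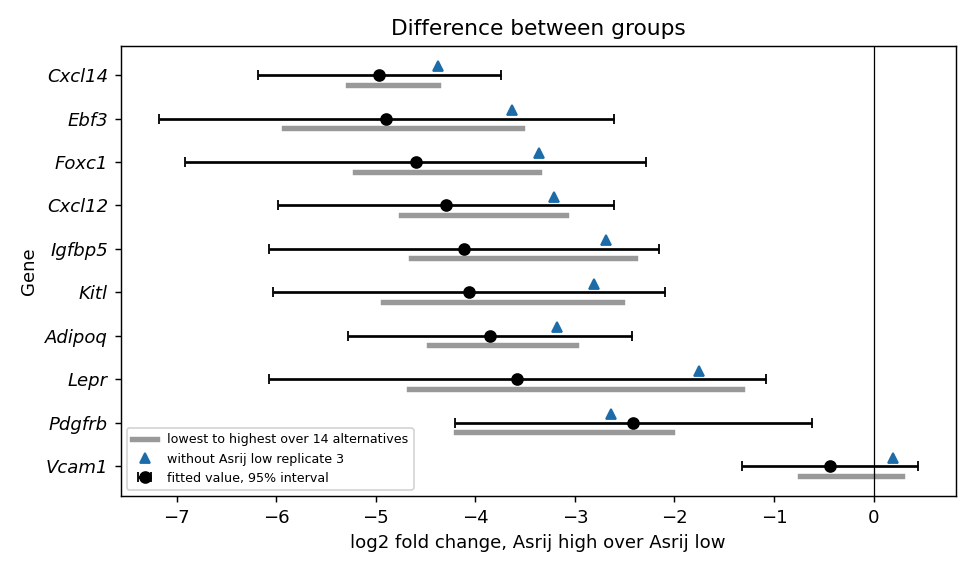
Fitted log2 fold change, Asrij high over Asrij low, of each gene with its 95% interval (black), the lowest to highest value over 14 alternatives (grey) and the value without Asrij low replicate 3 (blue triangles). For 8 genes the value without that library is nearer to 0, for Pdgfrb it is farther from 0 (-2.64 against -2.41), and for Vcam1 it lies above 0 (0.19).

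Levels of different genes were compared per kilobase of exon, in CPM per kilobase with exon lengths of GENCODE M21. In Asrij low the order was Cxcl12 (29.0 ± 27.4), Igfbp5 (21.6 ± 23.7), Pdgfrb (15.9 ± 3.89), Cxcl14 (9.14 ± 5.86), Adipoq (5.10 ± 3.36) and Vcam1 (4.11 ± 2.62). Lepr (1.29 ± 1.62), Kitl (0.805 ± 0.820), Ebf3 (0.597 ± 0.615) and Foxc1 (0.465 ± 0.483) followed. Only the gaps between Pdgfrb and Cxcl14 (6.74) and between Vcam1 and Lepr (2.82) exceeded the larger SD of the pair. That SD ignores that the genes were read in the same libraries. Within each Asrij low library Cxcl12 lay above Igfbp5 (17.7, 9.09 and 60.3 against 9.03, 6.75 and 48.9). Cxcl14 lay above Adipoq, Adipoq above Vcam1, Vcam1 above Lepr, Kitl above Ebf3 and Ebf3 above Foxc1 in each as well. The order of Igfbp5 and Pdgfrb, of Pdgfrb and Cxcl14, and of Lepr and Kitl differed between libraries. Without Asrij low replicate 3 the order began with Pdgfrb (18.1), Cxcl12 (13.4) and Igfbp5 (7.89), and the other 7 genes kept their places. In Asrij high the order was led by Vcam1 (3.02 ± 0.735) and Pdgfrb (2.98 ± 3.44), with Cxcl12 (1.48 ± 0.580) and Igfbp5 (1.25 ± 0.626) behind them. Here only the gaps between Igfbp5 and Adipoq and between Cxcl14 and Lepr exceeded the larger SD of the pair. The order of Lepr, Kitl, Ebf3 and Foxc1 at the lower end was that of Asrij low, from 0.107 ± 0.0948 to 0.0188 ± 0.0135. Which annotation the authors counted on is not given in the sources used here, so these lengths are approximate.

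The 10 genes together took 0.0403%, 0.0278% and 0.105% of all counts in Asrij low replicates 1 to 3 and 0.00489%, 0.00742% and 0.00557% in Asrij high. Their make-up differed between libraries. Cxcl12 supplied 49.1% of these counts in Asrij low replicate 3 and Pdgfrb 6.28%, whereas in Asrij low replicate 2 Pdgfrb supplied 40.1% and Cxcl12 28.7%. In Asrij high replicate 2 Pdgfrb supplied 49.3% and Cxcl12 12.8%.

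A ratio of counts within a library is free of library scaling, and it shows how far each gene kept step with Cxcl12. For every 100 counts of Cxcl12 there were 37.4, 54.6 and 59.7 of Igfbp5 in Asrij low and 76.5, 41.9 and 65.9 in Asrij high. Over the 6 libraries this ratio varied 2.04-fold, while Cxcl12 itself ran from 8.83 to 493 CPM. The ratio of Kitl lay between 1.23 and 2.94 per 100 (2.40-fold), that of Adipoq between 2.51 and 6.66 (2.66-fold), that of Cxcl14 between 3.20 and 10.1 (3.16-fold) and that of Lepr between 2.10 and 8.57 (4.09-fold). In these 5 genes the ratios of the 2 groups overlapped. Some genes outside the set kept step as closely and others did not. The ratio of Col1a1 varied 1.65-fold, less than that of each member set against Cxcl12. Col1a1 is also the gene nearest to Cxcl12 in profile over the same libraries, as given below, so its steady ratio is no separate result. The ratio of the macrophage complement gene C1qa varied 2.96-fold, from 5.34 to 15.8 per 100, with overlapping groups. That of Serping1 varied 2.36-fold and that of the globin gene Hba-a1 4.33-fold, each without overlap of the groups. The ratio of Procr varied 8.34-fold, that of Stab2 13.3-fold and that of Cdh5 21.0-fold.

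Ebf3 and Foxc1 kept a like ratio in 5 libraries, at 1.59 to 4.16 and 0.932 to 1.91 per 100 counts of Cxcl12, and stood at 0.173 in Asrij high replicate 3, where each had 2 counts. Vcam1 and Pdgfrb did not keep step. Vcam1 had 12.8 to 29.2 counts per 100 of Cxcl12 in Asrij low and 129 to 389 in Asrij high, without overlap. Pdgfrb varied 30.1-fold, from 12.8 in Asrij low replicate 3 to 386 in Asrij high replicate 2.

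**Figure D3:**
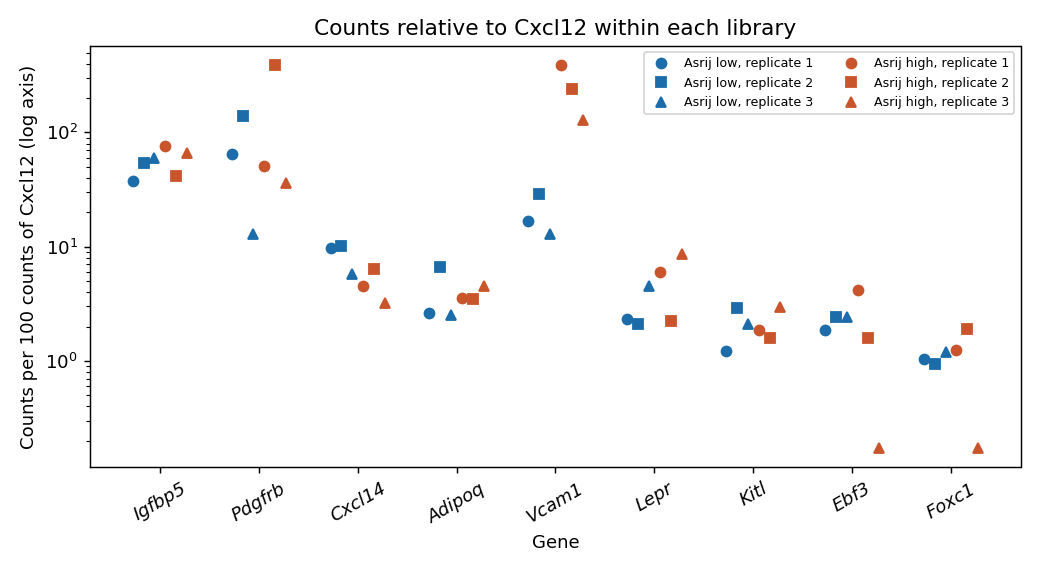
Counts of each gene per 100 counts of Cxcl12 in the same library, on a log axis, for the 3 Asrij low (blue) and 3 Asrij high (orange) libraries. Igfbp5, Kitl, Adipoq, Cxcl14 and Lepr overlap between groups, Vcam1 separates (12.8 to 29.2 against 129 to 389), and Ebf3 and Foxc1 drop to 0.173 in Asrij high replicate 3.

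The spread within Asrij low was large and, except for Pdgfrb, had the same direction. In 9 of the 10 genes Asrij low replicate 3 was the highest of all 6 libraries, as it was for 21.6% of all tested genes. It exceeded Asrij low replicate 2 by 6.63-fold for Cxcl12, 14.2-fold for Lepr, 8.58-fold for Foxc1, 7.25-fold for Igfbp5 and 2.92-fold for Vcam1. Pdgfrb went the other way, at 0.607-fold. The globin gene Hba-a1 exceeded its level in replicate 2 by 7.82-fold in the same library, and the erythroid haem enzyme gene Alas2 by 7.74-fold. Of the 17 HSC identity genes 3 were highest in this library.

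By a rule on the shape of the profile, the genes nearest to Cxcl12 were sought among 12713 named genes with a mean of at least 1 CPM, leaving out the other 9 genes. Likeness was the root mean square difference between centred log2 CPM values over the 6 libraries. The nearest were the type I collagen gene Col1a1 (0.234), the angiotensinogen gene Agt (0.298), the actin-associated gene Synpo (0.301), the complement inhibitor gene Serping1 (0.316), the monooxygenase gene Fmo2 (0.345) and the tenascin gene Tnc (0.353). Col1a1 had 15.3, 6.96 and 51.3 CPM in Asrij low against 1.29, 1.01 and 1.55 CPM in Asrij high. On the same measure Igfbp5 (0.357), Kitl (0.436) and Adipoq (0.482) lay beyond these 6 genes, and Pdgfrb (1.53) and Vcam1 (1.90) were the farthest of the 10. Col1a1, Agt, Serping1 and Tnc also stand in the lists of stroma and bone genes described below.

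The same measure was applied to Pdgfrb after its values were seen. Nearest to it were H2-Ob (0.202), Kcnc1 (0.222), Gstm7 (0.249), the sphingosine-1-phosphate receptor gene S1pr1 (0.254), Nectin4 (0.294) and Nckap5l (0.304). S1pr1 had 35.9, 44.2 and 28.2 CPM in Asrij low against 2.35, 12.3 and 3.43 CPM in Asrij high, where replicate 2 was the highest library as for Pdgfrb.

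Other genes of marrow reticular stroma were lower as well. Of 40 listed genes all were in the table and 32 were tested, of which 26 were lower, 0 higher and 6 not called (median log2 fold change -3.15, against -0.02 over all tested genes, of which 17.7% were called lower). Of the 32, 10 passed the count filter through the Asrij low libraries alone. The count was 20 without Asrij low replicate 3, where 15.6% of all tested genes were called lower, and 14 without Asrij high replicate 1, where 10.2% were. The growth factor ligand gene Gas6 fell by 3.68 ± 0.65 on the log2 scale, from 35.9 ± 30.8 to 2.79 ± 1.18 CPM (adjusted p = 0.00322). Lpl, the lipoprotein lipase gene, fell by 2.82 ± 0.53, from 19.5 ± 15.3 to 2.75 ± 0.753 CPM (adjusted p = 0.00312).

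Some listed genes are not particular to stroma. Angpt1, the TIE2 ligand gene, which stem cells also express, had 262, 473 and 278 CPM in Asrij low against 46.9, 141 and 71.2 CPM in Asrij high. Its highest library was Asrij low replicate 2, and it fell by 1.96 on the log2 scale (adjusted p = 0.00617). Igfbp4, another binding protein of insulin-like growth factors, fell by 1.33 and the apolipoprotein gene Apoe by 1.73, the latter not called without a count filter, Asrij low replicate 2 or Asrij high replicate 3. Hp, the haptoglobin gene, which neutrophil precursors also make, was at 98.3 ± 68.1 and 120 ± 24.8 CPM and was not called (log2 0.28, adjusted p = 0.693).

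The receptors and partners of these signals sit mostly on the blood cells themselves. Of 24 listed genes 21 were tested, of which 12 were lower, 2 higher and 7 not called, with a median log2 fold change of -0.87. Over all tested genes 17.7% were called lower and 21.7% higher, so the share called higher here lies below that of all genes. Kit, the receptor for KIT ligand, had 729, 754 and 563 CPM in Asrij low against 373, 456 and 305 CPM in Asrij high, a fall of 0.85 ± 0.20 (adjusted p = 0.00963). Cxcr4, the receptor for CXCL12, had 52.4, 63.7 and 64.7 CPM in Asrij low against 73.2, 81.0 and 84.0 CPM in Asrij high, without overlap, yet it was not called (log2 0.40 ± 0.16, adjusted p = 0.0725). Ackr3, the scavenger receptor for CXCL12, had 8 counts in Asrij low replicate 3, 2 in Asrij high replicate 2 and none in the other 4 libraries. Cxcr4 and Ackr3 were named after their values were seen.

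Of the integrin partner genes of VCAM1, Itga4 was not called (log2 0.19, 95% interval -0.17 to 0.55, adjusted p = 0.377) and Itgb1 rose from 237 ± 46.9 to 398 ± 58.3 CPM (log2 0.75 ± 0.20, 95% interval 0.31 to 1.19, adjusted p = 0.0144). The intervals overlap, and the difference between these genes was not tested. Itgb7, the other beta chain that pairs with Itga4, fell by 1.81 ± 0.30 (adjusted p = 0.00195) and was called under each of the 14 alternatives. With scaling by library totals or by upper quartile Itgb1 was not called (0.48 in each, adjusted p = 0.0651 and 0.0529) and Itga4 was at -0.08 in each. The call of Itgb1 also ended when replicate 1 of Asrij low (adjusted p = 0.0581), replicate 1 of Asrij high (0.0508) or replicate 3 of Asrij high (0.0597) was left out. Adipor2, a receptor for adiponectin, fell by 0.62 (adjusted p = 0.0187, and above 0.05 when replicate 1 or 2 of Asrij low, or replicate 1 of Asrij high, was left out) and Igf1r, the receptor for insulin-like growth factor 1, by 0.87. Stat3, a transcription factor gene downstream of the leptin receptor and of many cytokine receptors, fell by 1.47 (adjusted p = 0.00117). Igf2r, which encodes a receptor that clears IGF2 and carries lysosomal enzymes, was the other gene that rose, from 49.2 ± 13.6 to 138 ± 37.4 CPM (log2 1.49 ± 0.26, adjusted p = 0.0024).

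Marker lists of other marrow cells were read beside the reticular genes, and their counts stand beside shares of 17.7% lower and 21.7% higher over all tested genes. Where a sum leaves out 1 gene, that gene was picked after its values were seen. Such a sum is a description and no test of its list. Some listed genes entered the test through the Asrij low libraries alone, the group where the genes called lower are high. They were Phex and Alpl (bone), Emcn and Cldn5 (endothelium), Des and Acta2 (pericyte) and Pparg (adipocyte). Col2a1 (chondrocyte), Jchain (plasma cell) and Spic (macrophage) did so too, as did the fibroblast genes given below. Phex, Emcn, Cldn5, Des and Pparg are among the genes called lower. The osteoblast and bone matrix list had 6 of 8 tested genes lower and 0 higher, with summed levels of 186 to 305 CPM in Asrij low against 26.6 to 79.0 CPM in Asrij high. Most of this sum came from Runx2, a transcription factor gene of bone that blood stem cells also express (117, 121 and 111 CPM in Asrij low), and from Col1a2. Without Runx2 the sums were 64.8 to 195 CPM against 11.9 to 30.6 CPM. Of its 13 genes the osteocyte genes Mepe and Sost had no count in any library. The fibroblast and collagen list had 6 of 9 tested genes lower and 1 higher, Col5a1. Of the 6, Col3a1, Col6a2 and S100a4 entered the test through the Asrij low libraries alone. The sums overlapped, at 41.5 to 174 and 68.3 to 98.2 CPM, and without Col5a1 they were 35.7 to 156 CPM against at most 25.4 CPM.

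Pericyte and smooth muscle genes summed to 20.5, 12.8 and 98.9 CPM in Asrij low against 4.85, 6.85 and 8.98 CPM in Asrij high. Of 10 tested genes 2 were called lower, a share close to that of all genes, and 0 higher. Their fitted values were nonetheless below 0 in 10 of 10, with a median log2 fold change of -2.85 against -0.02 over all tested genes. The pericyte channel gene Abcc9 had 0.148, 0.277 and 30.4 CPM in Asrij low against 0.459, 0.126 and 1.88 CPM in Asrij high and was not called (adjusted p = 0.168), and the pericyte proteoglycan gene Cspg4 had no count in Asrij low. Sinusoidal and arterial endothelium summed to 394 to 601 CPM in Asrij low against 202 to 481 CPM in Asrij high, with 6 of 15 genes lower, 0 higher and none without counts. Vwf, which platelet precursors and stem cells also express, supplied 337 CPM in Asrij high replicate 2, and without it the endothelial sums were 275 to 488 against 60.2 to 144 CPM. In each library most of that remaining sum came from Tie1, Pecam1 and Tek, of which Tek also stands in the HSC identity list. Cdh5, Kdr, Flt4, Stab1 and Stab2 were not called, and in each of them the groups overlapped. The sinusoid gene Stab2 had 2.65, 4.88 and 53.0 CPM in Asrij low against 1.01, 1.02 and 4.25 CPM in Asrij high.

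Marrow macrophage genes, a list that includes Vcam1, had 10 of 12 tested genes lower and 1 higher, the iron exporter gene Slc40a1, and summed to 193 to 481 CPM in Asrij low against 137 to 203 CPM in Asrij high. Without Slc40a1 the macrophage sums were 164 to 418 against 55.5 to 60.3 CPM and did not overlap, whereas the full sums did. Erythroid genes summed to 27499, 11160 and 81044 CPM in Asrij low against 6755, 3655 and 7305 CPM in Asrij high, with 5 of 10 lower and 3 higher. Of the marrow adipocyte list 6 of 12 genes were tested, with 3 lower and 0 higher, and its sums overlapped, at 37.7 to 94.2 and 24.1 to 43.6 CPM. Most of the sum in Asrij high came from Cebpa, which was not called (adjusted p = 0.214). Cebpa had 16.7, 17.7 and 17.6 CPM in Asrij low against 24.9, 34.5 and 14.5 CPM in Asrij high, and a sum without it was not made. In the Schwann cell list 0 of 6 tested genes were called, and in the chondrocyte list 0 of 4 were lower and 1 was higher. Of the plasma cell genes 3 of 7 tested were lower and 0 higher, of the megakaryocyte genes 2 of 8 lower and 0 higher, and of the neutrophil genes 2 of 11 lower and 2 higher. Over all tested genes 17.7% were lower and 21.7% higher. The neutrophil share called lower (18.2%) is near that of all genes, and the megakaryocyte share (25%) is not far above it. The part of any of these cell types, or of the depth of the libraries, in the differences of the 10 genes was not tested.

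**Figure D4:**
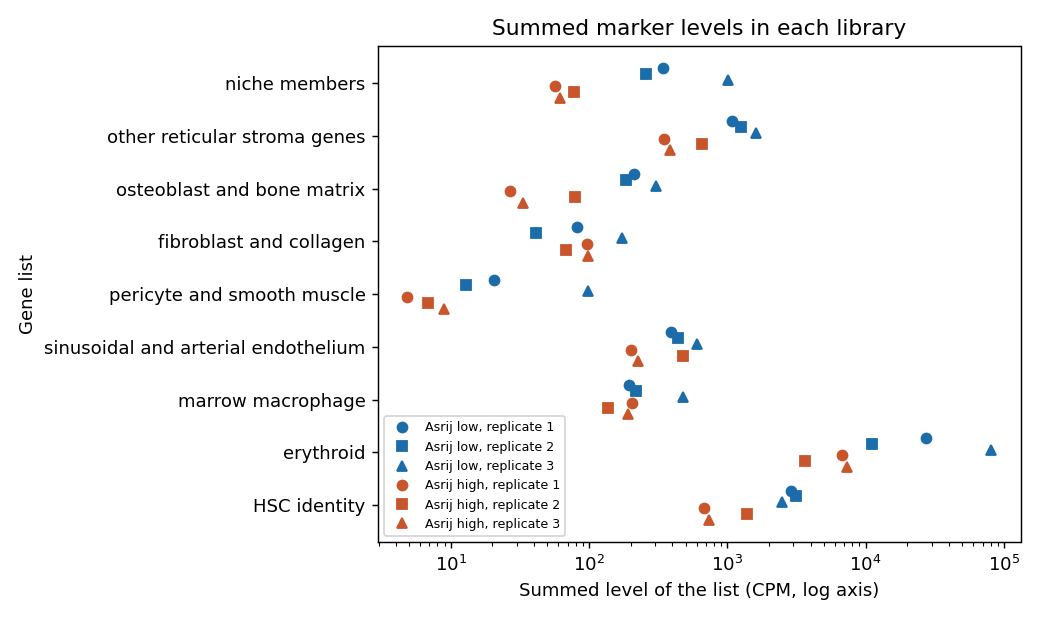
Summed level of 9 gene lists in each library, in CPM on a log axis, for Asrij low (blue) and Asrij high (orange). The sum of the 10 reticular genes (niche members, 259 to 1004 against 56.3 to 77.2 CPM) separates the groups. The sums of the fibroblast, endothelium and macrophage lists, as drawn, overlap. They do not overlap without Col5a1, Vwf and Slc40a1, which were left out after their values were seen. Asrij low replicate 3 is the highest library in 8 of the 9 lists drawn, all but HSC identity.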

How the data were processed

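RNA-seq of 6 sorted stem cell libraries was deposited by the authors as a table of raw gene counts. The submitters' processing notes name FastQC, HISAT2, SAMtools, Subread and the build mm10. The labels name a stranded library kit. The tools' versions, the annotation, the strand setting of the counting and the treatment of reads with several matches are not recorded in these sources. The labels name both poly(A) selection and ribosomal RNA depletion. Sorted groups were taken from the labels, which do not name separate mice; p-values therefore rest on library-to-library spread that may be technical. Over genes, chi-square divided by its degrees of freedom was 82.5 or more for each pair in a group, so no library is another one deposited again; this does not separate mice from technical repeats.

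Counts were tested with edgeR 4.0.16 (limma 3.58.1, R 4.3.3): TMM factors, filterByExpr (minimum count 10, total 15), quasi-likelihood F-test and Benjamini-Hochberg adjustment over 21445 of 49997 genes, threshold 0.05. SEs are the fold change over the root of F. Fold changes use edgeR's fit, and profiles use log2 CPM with a prior count of 2. The procedure was tested on simulated data. Exon lengths come from GENCODE M21, and gene coordinates and promoters from RefSeq, both on GRCm38.p6. Intervals from counts cover counting error only. The alternatives were DESeq2 1.42.0, scaling by totals or upper quartile, limma-voom, other count filters, a replicate block and leaving out libraries.

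The 10 genes and all 16 lists were chosen with earlier results of these data known. The rule for names covered all 10 genes, up to 6 of the most abundant genes of a list, exceptions to a list's direction, the 6 genes nearest to Cxcl12, and Ociad1. Not every gene it covers is named, and the erythroid and chondrocyte genes called higher are among those left unnamed. Other genes, among them Leprot, Cxcr4, Ackr3, Plin1, Abcc9, Stab2, Cdh5, Procr, Alas2, C1qa, Itgb7, Runx2, Vwf, Fabp4, Pparg, Plin4, Cebpa and the genes nearest to Pdgfrb, were named after their values were seen. All 227 listed symbols were found, 1 (Wisp2) through its RefSeq name Ccn5.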

Additional observations from a re-analysis of the deposited data

How the results depend on the processing

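Over 14 alternatives, 13 planned and 1 chosen after seeing the data (without replicate 3 of Asrij low and replicate 2 of Asrij high), none of the 9 called genes changed direction and none of the 10 was called higher. Adipoq, Foxc1 and Cxcl14 were called under each. Vcam1 turned sign without Asrij low replicate 3 (0.19) and in the added alternative (0.28) and was called in none. Its values with 1 library left out ran from -0.72 to 0.19. The count of the 10 genes called lower was 9 in DESeq2, under each other scaling, with a floor of 1 CPM on the mean, and with the replicate block, 8 in limma-voom, and 6 both without a count filter and in the added alternative. With 1 library left out, 5 to 8 of the 10 genes, 14 to 27 of the other stroma genes and 5481 to 8935 of all genes were called, the lowest each time without Asrij high replicate 1, and 1 to 2 of the receptors and partners were higher. Why that library matters was not tested. Scaling by library totals or upper quartile called 1 receptor or partner higher, Igf2r. These scalings moved the median of all genes to -0.29 and -0.30 and the split of calls to 3270 higher and 4856 lower, and to 3447 higher and 5192 lower, against 4655 higher and 3797 lower with TMM. Libraries with the same replicate number had r = 0.0126, 0.046 and 0.225 across genes between deviations from the group means. The value of 0.225, for replicate 3, was the largest of all pairs across the groups, yet not every library correlated best with its own number. With 3 libraries per group these values cannot settle whether the numbers pair the libraries. The replicate block gave 8088 genes and changed the call of none of the 10. Counts of 2 to 34 in Asrij high limit the precision for Ebf3, Foxc1 and Kitl. Those of Adipoq, Cxcl14 and Lepr, at 14 to 99, were low as well.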
